A study of Mus musculus with 4 samples.

Results

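The 7 genes described here are Nppa, Nppb, Myl7, Myl4, Mybphl, Sln and Bmp10, the natriuretic peptide genes and the genes that mark atrial cardiomyocytes in the mouse heart. They were taken by symbol from the deposited table, where each had 1 row, so they are 7 of 55401 genes, and all 7 were among the 10036 genes whose TPM (transcripts per 1000000) averaged at least 1. The study made C57BL/6N mice with an arginine-to-tryptophan change, R567W, in CTCF, a DNA-binding protein that organises chromatin loops, by CRISPR/Cas9 editing. RNA of heart tissue from 8-week-old animals was compared between 2 wild-type samples and 2 samples of mice with the change on 1 allele (Ctcf +/R567W, heterozygous), here called hearts, all from a specific pathogen-free facility. The comparison asked which genes differ in the adult heart when 1 Ctcf allele is altered. The change was in the germline, so every cell type of these hearts carried it. The labels name the tissue as heart only, and how the atria were trimmed, and whether they were kept, is not given in the sources used here. The labels give no sex, but Xist was at most 0.033 scaled TPM and the Y-linked gene Ddx3y was between 12.5 and 19.8 scaled TPM over the 4 hearts.

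Nppa and Nppb encode the precursors of atrial and B-type natriuretic peptide, hormones that cardiomyocytes release when the wall is stretched and that lower blood volume and pressure through the receptor guanylyl cyclase encoded by Npr1. In the adult mouse Nppa is made mostly in the atria, and Nppb in atria and ventricles. Atrial and ventricular cardiomyocytes also build their sarcomeres from different proteins. Myl7 and Myl4 encode the atrial regulatory and essential myosin light chains, whose ventricular counterparts are Myl2 and Myl3. Sln encodes sarcolipin, a small membrane peptide that restrains the calcium pump SERCA in atria, as phospholamban, the product of Pln, does in ventricles. Mybphl encodes a myosin-binding protein related to the cardiac myosin-binding protein C of Mybpc3. Bmp10 encodes a growth factor secreted by trabecular myocardium in the embryo and by the atrium in the adult.

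The table holds TPM, which are per transcript length, so levels of different genes in 1 heart can be compared, and which sum to the same total in each heart, so the sequencing depth is unknown. Transcripts of the mitochondrial genome and their near-identical nuclear copies took 76.0% to 78.8% of the TPM in the wild-type hearts and 82.4% to 85.8% in the heterozygous hearts. Each heart was therefore divided by a factor, between 0.818 and 1.26, that equalises the bulk of the other genes, and the result is called scaled TPM. Without the factors the median of all tested genes differed between genotypes by -0.35 on the log2 scale (heterozygous minus wild type), and with them by -0.00. Ctcf, the edited gene, had 6.12 and 6.02 scaled TPM in wild type and 7.51 and 5.76 in heterozygotes, and a change of 1 codon need not alter this level. Log2 differences below are of log2(scaled TPM + 1), tested with limma across all 10036 genes with Benjamini-Hochberg adjustment. Calls required a fold change of more than 1.5 together with an adjusted p below 0.05.

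None of the 7 genes was called between genotypes, where 0.0199% of all tested genes were called (2 genes). All 7 had the higher mean in the heterozygous hearts, a direction that 49.3% of all tested genes had, and their median log2 difference was 0.83 against -0.00 for all tested genes. The 4 hearts nevertheless overlapped for 5 of the 7 genes. Both heterozygous hearts lay above both wild-type hearts for the other 2, Nppb and Bmp10, where 23.7% of all tested genes did so. These 2 genes also had an unadjusted p under 0.05, as did 6.49% of all tested genes in the higher direction. Bmp10 reached the bound for testing only through heterozygous heart 2, so its place in these counts is no independent support. In 5 of the 7 genes the gap between the wild-type pair exceeded the gap between genotypes. The higher direction held for all 7 in each of 6 scalings, with medians between 0.42 in TPM as deposited and 0.93 when scaled to general cardiomyocyte genes. The splits of other gene groups moved with the scaling, so those in TPM as deposited, which carry the general shift of -0.35, are given beside those in scaled TPM.

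Nppa had 393 and 1204 scaled TPM in wild-type hearts 1 and 2, and 1012 and 1739 in heterozygous hearts 1 and 2. Wild-type heart 1 was low, wild-type heart 2 lay between the heterozygous hearts, and the genotypes overlapped. The wild-type mean was 798 ± 574 and the heterozygous mean 1375 ± 514 (SD, n = 2 each). The log2 difference was 0.95 (SE 0.53, 95% interval -0.31 to 2.21, limma adjusted p = 0.485). The wild-type hearts themselves differed 3.07-fold and the heterozygous hearts 1.72-fold.

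Nppb had 109 and 121 scaled TPM in wild type, against 164 and 213 in heterozygotes. Both heterozygous hearts were higher, and the wild-type hearts differed by only 1.11-fold, so Nppb did not share the low level of the other genes in wild-type heart 1. The means were 115 ± 8.77 and 189 ± 34.8 (SD, n = 2 each). The log2 difference was 0.70 (SE 0.21, 95% interval 0.20 to 1.19, limma adjusted p = 0.341). In TPM as deposited the separation was lost, since wild-type heart 2 had 153 TPM and heterozygous heart 1 had 134, and the log2 difference was 0.25 (adjusted p = 0.505). The call of non-overlap for Nppb therefore rested on the scaling.

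Myl7, the atrial regulatory light chain gene, had 299.6 and 809 scaled TPM in wild type and 634 and 1036 in heterozygotes. The order was again wild-type 1, heterozygous 1, wild-type 2, heterozygous 2, from low to high. Its log2 difference between genotypes was 0.72 (SE 0.48, limma adjusted p = 0.545), and the wild-type hearts differed 2.70-fold. Myl4, the atrial essential light chain gene, had 104 and 295 scaled TPM in wild-type and 244 and 453 in heterozygous hearts. Its hearts stood in the same order, with a log2 difference of 0.92 between genotypes (SE 0.51, limma adjusted p = 0.482) and a 2.85-fold difference between the wild-type hearts.

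Mybphl, the atrial myosin-binding protein gene, had 4.44 and 16.5 scaled TPM in wild-type hearts, and 12.9 and 20.7 in heterozygous hearts. The wild-type hearts enclosed heterozygous heart 1, and the log2 difference was 0.83 (SE 0.52, limma adjusted p = 0.522). Sln, the atrial SERCA regulator, had 10.8 and 46.1 scaled TPM in wild-type hearts, and 27.8 and 52.8 in heterozygous hearts. The wild-type hearts differed 4.27-fold, the widest such ratio of the 6 genes above 0 in every heart, and the log2 difference between genotypes was 0.74 (SE 0.62, limma adjusted p = 0.634).

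Bmp10, the secreted factor, was near the lower bound for testing. Its TPM averaged 1.02, and only heterozygous heart 2 (2.22 TPM) was above 1, so it was tested only through a group where it was high. It was listed at 0 in wild-type heart 1 and had 0.754 scaled TPM in wild-type heart 2, 1.10 in heterozygous heart 1 and 2.46 in heterozygous heart 2. Both heterozygous hearts were higher, although in TPM as deposited wild-type heart 2 (0.95 TPM) and heterozygous heart 1 (0.90 TPM) changed places. The log2 difference was 1.03 (SE 0.33, 95% interval 0.24 to 1.81, limma adjusted p = 0.346). At this level it depended on the value added before taking logs, and was 2.58 with 0.1 added and 0.33 with 5 added.

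**Figure D1:**
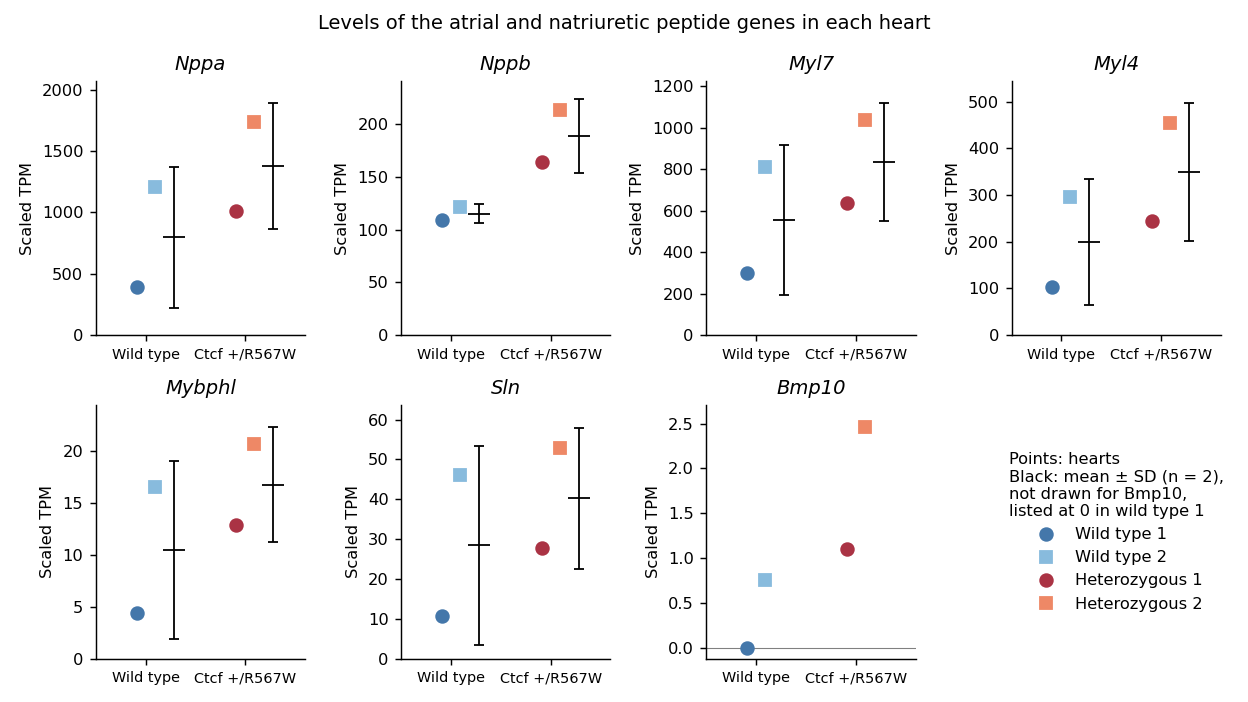
Scaled TPM (vertical axes, each from 0 except for Bmp10, which starts just below) of the 7 genes in each wild-type and Ctcf +/R567W heart. Points are hearts, and black bars are the genotype mean ± SD with n = 2, not drawn for Bmp10. For Nppa, Myl7, Myl4, Mybphl and Sln wild-type heart 2 lies between the heterozygous hearts, while for Nppb and Bmp10 the genotypes do not overlap.

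Ranked by level, the 7 genes kept nearly the same order in every heart. Nppa was highest and Myl7 second in each of the 4 hearts, and Sln, Mybphl and Bmp10 followed at the bottom in that order. Only Nppb and Myl4 exchanged places, with Nppb above Myl4 in wild-type heart 1 (109 against 104 scaled TPM) and below it in the other 3 hearts. The means of neighbours in this order were also set beside the SD between hearts. That SD includes variation shared by the genes, and it ignores their pairing within a heart, where the order above held. In wild-type hearts the means of Nppa, Myl7 (554 ± 360), Myl4 (199 ± 135) and Nppb each differed from the next by less than the larger SD, as did those of Sln (28.4 ± 24.9) and Mybphl (10.5 ± 8.54). In heterozygous hearts each neighbour in the order of the means differed from the next by more than the larger SD.

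Heart-to-heart differences within a genotype were then set beside those of all tested genes. Wild-type heart 2 exceeded wild-type heart 1 by 1.61 for Nppa, 1.43 for Myl7, 1.502 for Myl4, 1.69 for Mybphl and 1.996 for Sln on the log2 scale. The median absolute difference between these hearts over all tested genes was 0.13. These 5 genes ranked 51, 63, 58, 49 and 38 of 10036 by the absolute difference, so 5 of the 7 genes were among the 100 most different genes of the wild-type pair. Bmp10 ranked 154, with a difference of 0.81, and Nppb ranked 4245, with 0.15. Nppb was thus the exception among the 7 genes in the wild-type pair.

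Heterozygous heart 2 also exceeded heterozygous heart 1 for all 7 genes, by between 0.38 for Nppb and 0.90 for Sln on the log2 scale. The median over the 7 genes was 0.72, against a median absolute difference of 0.21 over all tested genes. The shared order of hearts, wild-type 1 below heterozygous 1 below wild-type 2 below heterozygous 2, was found in 5 of the 7 genes and in 2.77% of all tested genes. The 7 genes were known to have related expression, so they are not independent readings of this order. The order was also the one seen in these same genes, so the 2 shares are descriptive only. In bulk tissue, fewer atrial cells in a sample and less of these RNAs per atrial cell cannot be told apart.

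**Figure D2:**
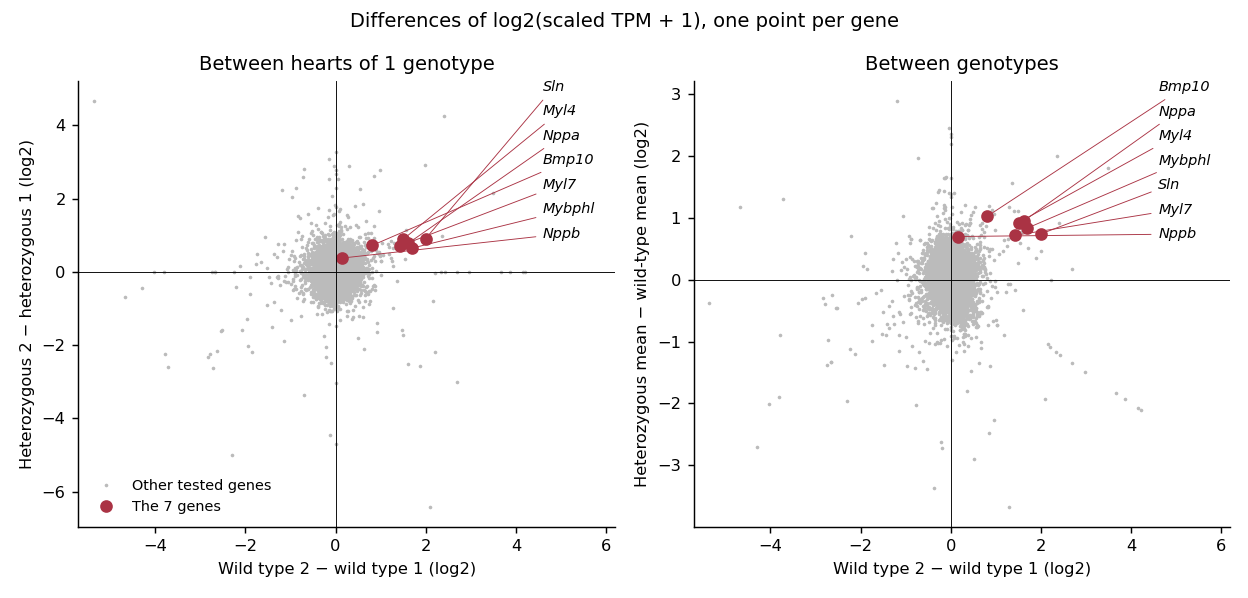
Each point is 1 of 10036 tested genes, and the horizontal axis of both panels is the log2 difference between wild-type hearts 2 and 1. The vertical axis is the log2 difference between heterozygous hearts 2 and 1 on the left and between genotype means on the right. Nppa, Myl7, Myl4, Mybphl and Sln lie at 1.43 to 1.996 on the horizontal axis, outside the bulk of genes, and Nppb lies at 0.15.

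Leaving out wild-type heart 1, the low heart, removed most of the genotype difference for 5 of the 7 genes. The log2 difference then was 0.14 for Nppa, 0.17 for Myl4, -0.000957 for Myl7, -0.017 for Mybphl and -0.26 for Sln. It was 0.62 for Nppb and 0.61 for Bmp10. Leaving out wild-type heart 2 gave the opposite picture, with 1.75 for Nppa, 1.67 for Myl4, 1.43 for Myl7, 1.66 for Mybphl, 1.73 for Sln, 0.77 for Nppb and 1.36 for Bmp10. Leaving out heterozygous heart 2, the high heart, also lowered the differences, to 0.56 for Nppa, 0.48 for Myl4, 0.36 for Myl7, 0.51 for Mybphl, 0.29 for Sln and 0.51 for Nppb, and Bmp10 then fell below the bound for testing. Leaving out heterozygous heart 1 raised them, to between 0.89 for Nppb and 1.44 for Bmp10. None of the 7 genes was called in any of these cases. For Nppa, Myl4, Myl7, Mybphl and Sln the size of the genotype difference thus depended on which heart was left out. Leaving out wild-type heart 1 lowered it most. With 2 hearts per genotype, leaving out either heart of a pair moves the difference nearly equally, in opposite directions. These values therefore largely restate the gaps within each pair.

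Ratios of TPM within 1 heart do not depend on the scaling, and they set an atrial gene beside its ventricular or general counterpart. Myl7 was 4.21% and 12.3% of Myl2 in wild type, and 13.3% and 18.1% in heterozygotes. Myl4 was 4.81% and 14.5% of Myl3 in wild type, and 18.1% and 25.5% in heterozygotes. For both light chain pairs the heterozygous hearts were above both wild-type hearts. The log2 differences of the ratios were 1.11 and 1.37 (exact two-sided permutation p = 0.333 each, the smallest that 2 against 2 hearts can give). Benjamini-Hochberg adjustment over the 10 ratios tested raised this to 0.833.

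The ventricular light chain genes had the lower mean in heterozygous hearts. Myl2 had 7115 and 6577 scaled TPM in wild-type and 4770 and 5736 in heterozygous hearts, with a log2 difference of -0.39 (limma adjusted p = 0.482). Myl3 had 2153 and 2041 scaled TPM in wild-type and 1350 and 1776 in heterozygous hearts, with a log2 difference of -0.44 (limma adjusted p = 0.457). Neither ventricular light chain gene was called. Of 10 genes shared by all cardiomyocytes 4 had the higher and 6 the lower mean in heterozygous hearts. Among the 6 were Tpm1, Actc1 and Tnnc1, with log2 differences of -0.48, -0.46 and -0.34. The lower mean was thus not particular to ventricular genes. Leaving out wild-type heart 1 reduced the log2 difference of Myl7/Myl2 to 0.33 and that of Myl4/Myl3 to 0.57.

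Sln was 2.55% and 11.0% of Pln in wild-type hearts, and 10.5% and 15.2% in heterozygous hearts, so the genotypes overlapped (exact permutation p = 0.667). Mybphl was 1.69% and 6.72% of Mybpc3 in wild-type hearts, and 3.67% and 6.90% in heterozygous hearts, and overlapped as well (exact permutation p = 0.667). Pln had 424 and 419 scaled TPM in wild-type and 264 and 347 in heterozygous hearts (log2 difference -0.48, limma adjusted p = 0.420). In all 4 of these ratios wild-type heart 1 was lowest and heterozygous heart 2 highest.

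Nppa, in contrast, kept close to Myl7 in every heart. It was 131% and 149% of Myl7 in wild-type hearts, and 160% and 168% in heterozygous hearts, a 1.28-fold range over 4 hearts in which Nppa itself ranged 4.43-fold. The heterozygous hearts were above both wild-type hearts, by 0.23 on the log2 scale (exact permutation p = 0.333). Nppb did not follow Nppa, and was 27.7% and 10.1% of it in wild-type hearts and 16.2% and 12.3% in heterozygous hearts, with overlap (exact permutation p = 1). Bmp10 was 0.0932% of Myl7 in wild-type heart 2, 0.174% in heterozygous heart 1 and 0.237% in heterozygous heart 2.

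A further 4 ratios to Myl7 were chosen after the values were seen. Myl4 stayed between 34.6% and 43.7% of Myl7, Sln between 3.61% and 5.69%, and Mybphl between 1.48% and 2.04%. Nppb was 36.3% of Myl7 in wild-type heart 1 and 15.0% in wild-type heart 2, so it went against the others. From the lowest to the highest heart these ratios ranged 1.27-fold for Myl4, 1.38-fold for Mybphl, 1.58-fold for Sln and 2.42-fold for Nppb.

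**Figure D3:**
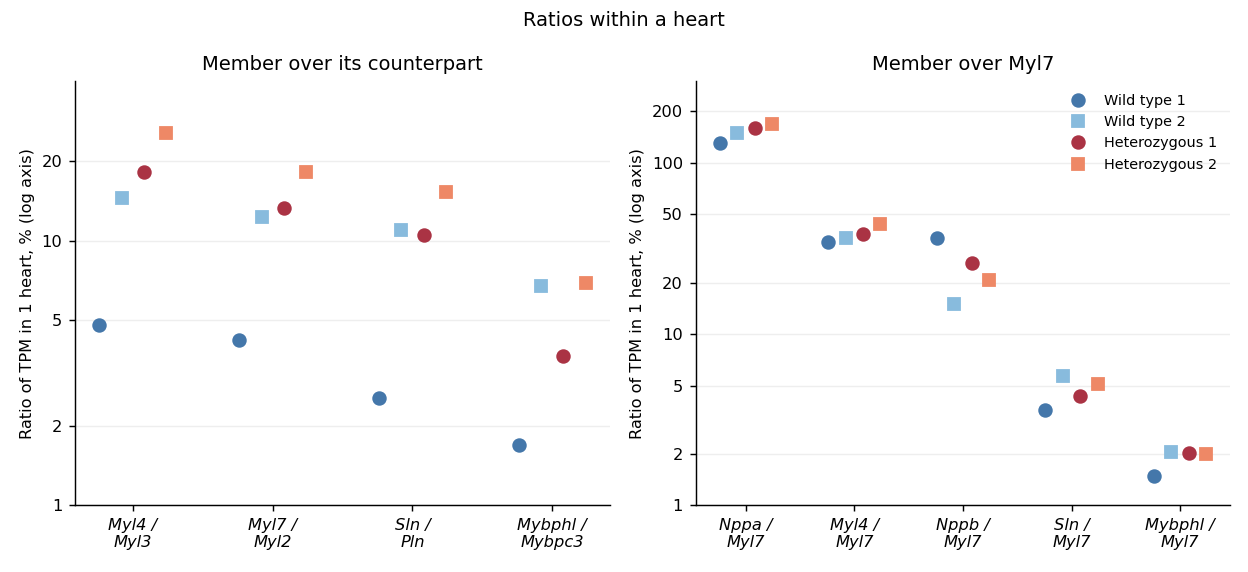
Ratio of 2 genes' TPM within a heart, in percent on a log axis, with 1 point per heart. On the left, each atrial gene over its ventricular or general counterpart is lowest in wild-type heart 1. On the right, Nppa, Myl4, Sln and Mybphl stay within a narrow band relative to Myl7, and Nppb over Myl7 is highest in wild-type heart 1.

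Promoter windows are shown for Nppa, Myl7 and Mybphl. These are not all the genes that moved together over the hearts, since Myl4 did so too. The sequences are the 250 bases before the RefSeq start on GRCm38, written 5′ to 3′ on the gene's own strand. Capitals mark matches on either strand to the motif of GATA factors, spelled GATAA, the motif of the homeobox factor NKX2-5, spelled AAGTG, and that of the T-box factor TBX5, spelled GGTGTGA. They also mark the TATA box, spelled TATAAA, and the CArG box of SRF.
Nppa, chr4:148000472-148000721, plus strand: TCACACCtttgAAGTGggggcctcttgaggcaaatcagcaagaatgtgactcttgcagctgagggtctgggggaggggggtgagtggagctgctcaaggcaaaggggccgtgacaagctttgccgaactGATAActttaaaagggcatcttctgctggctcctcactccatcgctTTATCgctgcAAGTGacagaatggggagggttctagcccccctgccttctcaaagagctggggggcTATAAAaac
Myl7, chr11:5898783-5899032, minus strand: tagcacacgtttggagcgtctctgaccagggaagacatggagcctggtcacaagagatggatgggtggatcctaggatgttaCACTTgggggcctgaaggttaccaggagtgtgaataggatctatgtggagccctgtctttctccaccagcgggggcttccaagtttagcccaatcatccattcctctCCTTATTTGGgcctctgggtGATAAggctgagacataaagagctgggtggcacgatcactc
Mybphl, chr3:108364661-108364910, plus strand: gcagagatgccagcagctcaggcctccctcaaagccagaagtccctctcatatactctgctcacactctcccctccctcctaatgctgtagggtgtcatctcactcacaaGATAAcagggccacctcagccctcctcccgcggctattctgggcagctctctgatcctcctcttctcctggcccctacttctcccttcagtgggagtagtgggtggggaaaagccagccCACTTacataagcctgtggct
RefSeq windows were matched for 6 of the 7 genes, Sln being the other. GATAA was found in 5 of the 6 windows (Nppa, Nppb, Myl7, Mybphl and Bmp10) and in 22.6% of all 32851 windows of this length. AAGTG was found in 4 of the 6 (Nppa, Myl7, Myl4 and Mybphl) and in 40.7% of all windows, and GGTGTGA in Nppa alone and in 3.33% of all. The CArG box was found in Myl7 alone and in 1.47% of all windows, TATAAA in Nppa and Nppb and in 12.4% of all, and a MEF2 box in none of the 6 and in 0.508% of all. The Nppb window has its GATAA and TATAAA matches in its last 112 bases, which lie inside the longer GENCODE model of that gene. The Nppa window held the GATA, NKX2-5, TBX5 and TATA motifs, and the Myl7 window those of GATA and NKX2-5 and the CArG box. The Myl4 window, which is not shown, held AAGTG but no GATAA. A match describes these letters only, and binding was not measured here. Whether the motifs bear on the shared pattern over the hearts was not tested.

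On GRCm38, Nppb (chr4:147985788-147987205, plus strand) lies 13.5 kb before Nppa (chr4:148000722-148002079, plus strand). Myl7 (chr11:5896637-5898782, minus strand) and Myl4 (chr11:104550663-104595753, plus strand) are far apart on chromosome 11. Mybphl is at chr3:108364911-108380057, Sln at chr9:53850164-53854560 and Bmp10 at chr6:87428994-87437677, each on the plus strand. All are protein-coding genes, and no other gene model in the annotation was near-identical to any of them.

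The 54 genes within 100 kb of the 7 genes included 22 that were tested, and none was called. Their median log2 difference between genotypes was 0.14, with a range of -0.44 for Psma5 to 1.17 for Gm13054, and their median difference between the wild-type hearts was -0.01. Of the 22 genes, 5 had an unadjusted limma p under 0.05, among them Gm13054, Psma5 and 2510039O18Rik. Over all 10036 tested genes, 1224 had such a p, counting both directions. Clcn6, next to Nppa, had 1.99 and 1.63 scaled TPM in wild-type and 2.53 and 2.15 in heterozygous hearts. In TPM as deposited Clcn6 overlapped between genotypes, at 2.17 and 2.05 in wild-type and 2.07 and 1.94 in heterozygous hearts. Plod1, Agtrap and Mfn2 near Nppa, Sort1 and Sars near Mybphl, Cdc27 and Kansl1 near Myl4, and Arhgap25 near Bmp10 had log2 differences between -0.27 and 0.46. Near Myl7, Gm11967, Pold2, Aebp1, Ykt6, Polm, Camk2b, Pgam2 and Dbnl had log2 differences between -0.33 and 0.41.

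The largest difference among these neighbours was that of Gm13054, an antisense gene that overlaps Nppa (chr4:148001091-148004014, minus strand). It had 4.31 and 11.9 scaled TPM in wild-type and 13.9 and 22.3 in heterozygous hearts, and both heterozygous hearts were higher. Both were also higher for Clcn6, Plod1, Sort1, Polm, Camk2b and Dbnl among the neighbours, and for 23.7% of all tested genes. The log2 difference of Gm13054 was 1.17 (SE 0.42, limma adjusted p = 0.372). In TPM as deposited wild-type heart 2 (15.0) lay between the heterozygous hearts (11.4 and 20.1), so this separation rested on the scaling. Whether reads were counted by strand is not given in the sources used here, so reads from Gm13054 and from Nppa may not have been separated.

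The natriuretic peptide pathway runs from the enzymes that cut the precursors to the receptors and the cyclic GMP they make. Of its 16 genes 10 were tested, including Nppa and Nppb, and limma called none. Of the 10, 3 had an unadjusted p under 0.05 (Nppb, Npr2 and Pde2a), as had 1224 of all 10036 tested genes. Apart from Nppa and Nppb, 5 of 8 had the higher mean in heterozygous hearts and 3 the lower (2 and 6 in TPM as deposited), with a median log2 difference of 0.12. Corin, the protease that activates the Nppa product, had 13.4 and 17.6 scaled TPM in wild-type and 16.8 and 12.2 in heterozygous hearts, which overlapped (log2 difference -0.10, limma adjusted p = 0.869). Pcsk6, which activates corin, had a log2 difference of -0.37 (adjusted p = 0.431).

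Among the receptors, Npr1 had 14.0 and 13.9 scaled TPM in wild-type and 19.3 and 16.2 in heterozygous hearts, and both heterozygous hearts were higher (log2 difference 0.32, limma adjusted p = 0.451). Npr2, the receptor for C-type natriuretic peptide, had 36.1 and 30.2 in wild-type and 47.5 and 43.4 in heterozygous hearts (log2 difference 0.45, adjusted p = 0.393). Pde2a, a phosphodiesterase that cyclic GMP stimulates, had 15.4 and 15.2 against 23.4 and 20.4 scaled TPM (log2 difference 0.49, adjusted p = 0.346). In TPM as deposited the genotypes overlapped for Npr1, Npr2 and Pde2a. The clearance receptor gene Npr3 was below the bound for testing, at between 0.786 and 0.979 scaled TPM in the 4 hearts. The ligand gene Nppc was at most 0.073 scaled TPM.

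Transcription factors known to act on Nppa and Nppb were mostly on the other side. Of 10 such genes 9 were tested and limma called none, and 0 had an unadjusted p under 0.05, with 1 higher and 8 lower in heterozygous hearts and a median log2 difference of -0.05. The split was also 1 and 8 in TPM as deposited, but 5 and 4 when scaled to general cardiomyocyte genes. Against the median of all tested genes it was 1 above and 8 below under each of these scalings. Tbx5, which is also enriched in atria, was the higher one, with 1.26 and 1.99 scaled TPM in wild-type and 2.45 and 2.25 in heterozygous hearts (log2 difference 0.36, limma adjusted p = 0.433). Srf had the most negative log2 difference of the 9, -0.26 (adjusted p = 0.574). Gata4 was nearly level over the hearts, at between 6.51 and 6.90 scaled TPM.

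Genes of wall stretch and of the fetal programme, which are often read together with Nppa and Nppb, were split. Of 11 genes 10 were tested, and limma called none, with only Nppb at an unadjusted p under 0.05. Besides Nppa and Nppb, 3 were higher and 5 lower in heterozygous hearts (0 and 8 in TPM as deposited). Ankrd1 had 60.0 and 72.5 scaled TPM in wild-type and 85.7 and 77.7 in heterozygous hearts, and both heterozygous hearts were higher in scaled TPM but not in TPM as deposited (log2 difference 0.30, limma adjusted p = 0.518). Myh7, the slow myosin of the fetal ventricle, had 12.3 and 22.6 in wild-type and 14.0 and 10.4 in heterozygous hearts (log2 difference -0.44, adjusted p = 0.546). Myh6, the adult cardiac myosin, was level at 9437 and 9176 against 9133 and 10554 scaled TPM (log2 difference 0.08, adjusted p = 0.894). Acta2 had a log2 difference of -0.54 (adjusted p = 0.425) and Acta1 of 0.20 (adjusted p = 0.756).

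The BMP9 and BMP10 pathway, which signals mainly in endothelial cells through Acvrl1, Eng and Bmpr2, had 12 of 19 genes tested. None was called by limma. Of the 12, 3 had an unadjusted p under 0.05 (Bmp10, Smad1 and Bmpr1a), as had 1224 of all 10036 tested genes. Besides Bmp10, 4 genes were higher and 7 lower in heterozygous hearts (1 and 10 in TPM as deposited), with a median log2 difference of -0.05. Acvrl1 had 6.56 and 5.68 scaled TPM in wild-type and 6.41 and 5.41 in heterozygous hearts (log2 difference -0.04, limma adjusted p = 0.921). Bmpr2 was at most 1.01 scaled TPM and was not tested. Bmpr1a had a log2 difference of -0.47 (adjusted p = 0.341), with 2.45 and 2.04 in wild-type and 1.37 and 1.30 in heterozygous hearts. The target gene Id1 had 20.9 and 15.9 in wild-type and 23.3 and 23.5 in heterozygous hearts (log2 difference 0.35, adjusted p = 0.467).

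A list of SERCA pumps, their small regulators and 2 further calcium-handling genes, Casq2 and Ryr2, gave 2 higher and 5 lower genes of the 7 tested besides Sln (0 and 7 in TPM as deposited), with no call by limma, 0 genes at an unadjusted p under 0.05 and a median log2 difference of -0.20. Casq2, for the calcium store protein calsequestrin, and Ryr2, for the calcium release channel, had log2 differences of -0.20 (limma adjusted p = 0.630) and -0.04 (adjusted p = 0.929), so the pumps and small regulators alone were 2 higher (Atp2a3 and Strit1) and 3 lower (Atp2a2, Pln and Mrln). Atp2a2, which encodes the cardiac SERCA pump, had 303 and 307 scaled TPM in wild-type and 229 and 262 in heterozygous hearts (log2 difference -0.32, limma adjusted p = 0.506). Mybpc3 had 262 and 246 in wild-type and 351 and 299.7 in heterozygous hearts (log2 difference 0.35, adjusted p = 0.479). Of 14 genes for myosin light chains, heavy chains and myosin-binding proteins 12 were tested and limma called none, with only Myl1 at an unadjusted p under 0.05. Myl1, another essential light chain gene, had 22.6 and 36.9 scaled TPM in wild-type and 40.4 and 76.7 in heterozygous hearts, and both heterozygous hearts were higher in scaled TPM but not in TPM as deposited (log2 difference 0.92, adjusted p = 0.382).

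**Figure D4:**
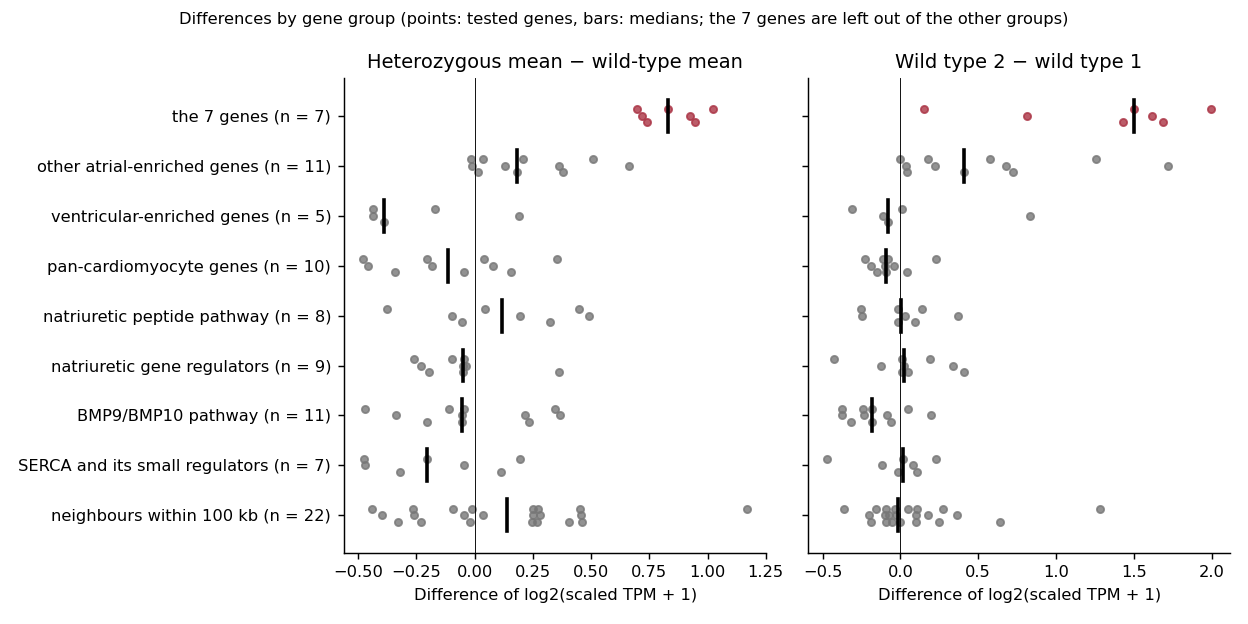
Log2 differences of tested genes by group, with 1 point per gene and a bar at the median. The left panel compares genotype means and the right panel the wild-type hearts. The 7 genes have medians of 0.83 and 1.502, other atrial genes 0.18 and 0.41, and ventricular genes -0.39 and -0.08.

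A list of 15 other atrial-enriched genes shared the pattern only in part. Of these 11 were tested and limma called none, and 0 had an unadjusted p under 0.05, with 9 higher and 2 lower in heterozygous hearts (4 and 7 in TPM as deposited) and a median log2 difference of 0.18. Against the median of all tested genes the split was 9 above and 2 below in scaled TPM, and 10 and 1 in TPM as deposited. The median log2 difference of heart 2 minus heart 1 was 0.41 in wild type but -0.09 in heterozygotes. Only 4 of the 11 were higher in heart 2 of both pairs, as all 7 genes were. Dkk3, a secreted Wnt pathway protein, had 0.818 and 4.98 scaled TPM in wild-type and 2.48 and 5.30 in heterozygous hearts. Sbk3, a kinase gene, had 1.54 and 5.09 against 4.61 and 5.93, and its relative Sbk2 had 1.22 and 2.32 against 1.86 and 3.37. Wild-type heart 1 was lowest for these 3 genes, and Dkk3 and Sbk3 ranked 48 and 79 of 10036 by the difference between the wild-type hearts. Pam, which encodes an amidating enzyme abundant in atrial granules, had 13.8 and 23.4 scaled TPM in wild-type and 20.3 and 20.8 in heterozygous hearts. The channel gene Kcnj5 and Tbx5 were also lowest in wild-type heart 1, with differences between the wild-type hearts of 0.68 and 0.41 on the log2 scale. The remaining tested genes of this list differed less between the wild-type hearts. The channel genes Kcnj3, Kcna5 and Cacna1d differed between the wild-type hearts by 0.18, -0.00 and 0.04 on the log2 scale. Nr2f2, a regulator of atrial identity, differed by 0.04.

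Sbk3 had the highest log2 difference between genotypes of this list, 0.66 (limma adjusted p = 0.493), and Cacna1d the lowest, -0.02 (adjusted p = 0.972). Of 7 sinoatrial node genes only Tbx3 reached the bound for testing, with 1.87 and 1.32 scaled TPM in wild-type and 2.23 and 0.974 in heterozygous hearts. Isl1 was listed at 0 in all 4 hearts.

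Genes shared by all cardiomyocytes did not separate wild-type heart 1. The summed level of 10 such genes was 18957 and 17839 scaled TPM in wild-type and 16407 and 19410 in heterozygous hearts. Of these 10 genes 4 were higher and 6 lower in heterozygous hearts (0 and 10 in TPM as deposited). The 5 ventricular-enriched genes summed to 9290 and 8650 in wild-type and 6144 and 7532 in heterozygous hearts, and 1 was higher and 4 lower in the latter (0 and 5 in TPM as deposited). Irx4 had the most positive log2 difference of these 5, 0.19 (limma adjusted p = 0.577), and Myh7 the most negative. Of the general cardiomyocyte genes Mybpc3 had the most positive difference and Tpm1 the most negative, -0.48 (adjusted p = 0.431). The 7 genes themselves summed to 920 and 2493 scaled TPM in wild-type and 2096 and 3517 in heterozygous hearts. Myh6 and Myl2, which define heart and ventricle, were thus abundant in every sample, and of the 7 atrial and natriuretic peptide genes all but Bmp10 were present in every sample.

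Markers of lung and thymus, which could be dissected with the atria, were low. Lung epithelial markers summed to at most 0.073 scaled TPM in any heart, with 3 of 4 listed at 0 throughout (Sftpa1, Sftpb and Scgb1a1). Thymus and T cell markers summed to between 0.110 and 0.244 scaled TPM, with Dntt listed at 0 throughout. Skeletal muscle markers summed to between 287 and 406 scaled TPM, of which Ckm, the muscle creatine kinase gene that heart muscle also expresses, made up 283 to 403. Of the other skeletal muscle markers Myh1 and Myh4 were listed at 0 in all hearts, while Mylpf and Tnni2 had log2 differences of 0.16 and -0.31 between genotypes. Erythroid markers summed to between 930 and 987 scaled TPM in 3 hearts and to 2120 in heterozygous heart 2, the heart with the highest level of each of the 7 genes. Hba-a2 had the most positive log2 difference of the erythroid genes, 0.63 (limma adjusted p = 0.493), and Alas2 the least, 0.26 (adjusted p = 0.746). The part of these cells in the levels of the 7 genes was not tested.

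Of cell types within the heart, endothelial markers summed to 265 and 264 scaled TPM in wild-type and 297 and 343 in heterozygous hearts, and of 6 genes tested 2 were higher and 4 lower. Egfl7 had a log2 difference of 0.39 (limma adjusted p = 0.448) and Pecam1 of -0.43 (adjusted p = 0.394). Fibroblast markers summed to 54.4 and 77.4 in wild-type and 52.0 and 55.4 in heterozygous hearts, with Col3a1 at 0.09 (adjusted p = 0.862) and Dcn at -0.56 (adjusted p = 0.429) on the log2 scale. Smooth muscle markers summed to between 21.8 and 37.8, macrophage markers to between 23.6 and 35.4, and epicardial and mesothelial markers to between 9.61 and 13.1 scaled TPM. Adipocyte markers summed to between 5.66 and 7.82 and Schwann cell markers to between 2.28 and 4.34 scaled TPM. The extremes of the log2 differences were 0.47 for Upk1b and -0.26 for Upk3b among epicardial genes, 0.23 for Cd68 and -0.38 for Lyz2 among macrophage genes, and -0.14 for Myh11 and -0.54 for Acta2 among smooth muscle genes. Limma called none of the tested genes of these lists, and 2 had an unadjusted p under 0.05, Pecam1 and Upk1b. Wild-type heart 1 was the lowest heart for none of these 7 sums.

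Genes most like the 7 were sought among the other tested genes by the correlation of their log2 levels with the median profile of the 7 genes over the 4 hearts. This gave 154 genes with r of at least 0.95, of which the 5 with the widest spread are named. With 4 hearts such a correlation is loose, and it is a description of these samples only. Hamp, which encodes the iron-regulating hormone hepcidin, had 0.882 and 20.1 scaled TPM in wild-type and 9.43 and 45.5 in heterozygous hearts. Mlana, known as a melanocyte antigen gene, had 0.598 and 3.21 against 3.39 and 6.19. Vps45, a vesicle-sorting gene, had 1.86 and 7.38 against 4.61 and 11.5. The predicted gene Gm49207 was listed at 0 in wild-type heart 1 and had 4.13 scaled TPM in wild-type heart 2, and 5.50 and 11.7 in heterozygous hearts. The last was Gm13054, the antisense gene at Nppa. The profile of the 7 genes themselves correlated with their median at r of 0.938 or more for 6 genes and of 0.775 for Nppb. Each of the 7 genes enters that median, so these values are partly built in.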

How the data were processed

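Poly(A) RNA was captured with beads and libraries were made with the VAHTS Universal V8 kit. The submitters' processing notes name Trim Galore, STAR, RSEM and DESeq2 and the build mm10 (GRCm38), and the TPM analysed here were deposited by the authors as 1 table of 4 libraries. TPM keep no depth, so counting error is unknown and a count test could not be run. Testing was limited to the 10036 of 55401 genes whose TPM averaged 1 or more. Median-of-ratios factors came from the 9970 of these above 0 in all libraries, TPM were divided by them, 1 was added, log2 was taken, and genotypes were compared with limma 3.58.1 in R 4.3.3 (trended empirical Bayes, two-sided, Benjamini-Hochberg). The smallest exact permutation p for 2 against 2 is 0.333. The labels number 2 replicates per genotype without naming animals, so the p-values refer to these samples and not necessarily to separate animals. The limma p-values set a difference against a variance taken partly from other genes of similar level. The script was tested on simulated data.

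The 7 genes and all gene lists were chosen with earlier results of these data known. Named besides the 7 genes were ventricular, receptor and sarcomere counterparts, the genes with the most positive and most negative difference in each list, tested genes within 100 kb, and the 5 genes with the widest spread among those correlated at 0.95 or more with the 7 genes' median profile. Gene positions are from GENCODE M21, and promoter sequences from RefSeq on GRCm38. Alternatives changed the scaling, the added value, the filter, the empirical Bayes settings, the thresholds, a replicate block and the libraries included. Some neighbouring genes are not reported here.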

Additional observations from a re-analysis of the deposited data

How the results depend on the processing

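In 18 alternatives the 7 genes were never called. Changing only the empirical Bayes settings, adding a replicate block or dropping the filter left their log2 differences unchanged by construction. Those settings could therefore not test the direction. With all libraries kept, the 83 log2 differences of the 7 genes all kept the positive direction, with limma adjusted p between 0.113 and 0.7995. With a library left out, 24 of 27 kept it, and without wild-type heart 1 the values turned to -0.26 for Sln, -0.000957 for Myl7 and -0.017 for Mybphl, while without wild-type heart 2 they were 1.73, 1.43 and 1.66, the other end of their ranges. Bmp10 could not be tested at a mean TPM of at least 5 or without heterozygous heart 2. Genes called over the whole table numbered 2 in the reported fit. They numbered 13 with TPM as deposited, 21 with mitochondrial genes removed, 7 with these and their nuclear copies removed, 8 when scaled to pan-cardiomyocyte genes, 4 with 0.1 added, 0 with no filter on low values and 5 with robust empirical Bayes, and between 10 and 25 with a library left out. The cause was not tested. The replicate numbers share only a number in the labels, and the deviations of same-numbered samples correlated at 0.101 over 10036 genes. A fit with that number as a replicate block called 10 genes, none of them among the 7, whose adjusted p lay between 0.114 for Bmp10 and 0.306 for Sln. Depth is unknown, and with 2 samples per genotype only large differences could pass the threshold.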
